A study of Mus musculus with 18 samples.

Results

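Peritoneal macrophages that had lost *Zeb1* were compared with macrophages that kept it, in mice pre-treated with Metformin before a single dose of lipopolysaccharide (LPS), the cell wall component of Gram-negative bacteria. The comparison used 6 of the 18 libraries of the series, taken by their genotype and treatment labels. These were 3 Zeb1WT libraries (Zeb1f/f mice) and 3 Zeb1ΔM libraries (Zeb1f/f LysM Cre mice). Of the 55573 genes counted, the 13443 that passed the filter on low counts were tested. All 6 libraries came from mice of the C57BL/6 strain. The cells were macrophages of the peritoneal lavage, sorted by flow cytometry on CD11b and F4/80, and each sample pooled 2 to 3 mice. Both genotypes carried the floxed *Zeb1* allele, and only the Zeb1ΔM mice carried Cre recombinase under the control of the lysozyme M locus (*Lyz2*), which is active in monocytes, macrophages and neutrophils. The age and sex of these mice are not given in the sources used here. The other 12 libraries came from mice of both genotypes given LPS alone or 2 doses of LPS (LPS + LPS), and LPS alone served here as the comparison. RNA was measured as gene counts from RNA-seq.

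ZEB1 is a zinc-finger transcription factor that binds E-box sequences of the form CACCTG, represses epithelial genes during the epithelial-to-mesenchymal transition, and is also expressed in macrophages. Metformin, a drug for type 2 diabetes, slows complex I of the mitochondrial respiratory chain, activates the energy sensor AMPK and dampens the response of macrophages to LPS. LPS binds TLR4 with its co-receptors CD14 and MD-2 and, through NF-kB and interferon signalling, switches on cytokines, chemokines and antiviral genes. The resting peritoneal cavity holds large macrophages that depend on GATA6 and express TIM4 (*Timd4*), a smaller population that derives from monocytes and is rich in MHC class II, and B cells, mast cells and eosinophils.

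Total counts ran from 18575570 to 30570439 in the Zeb1WT libraries and from 22517171 to 24133309 in the Zeb1ΔM libraries. Levels are given as counts per 1000000 counts (CPM) after trimmed mean of M-values (TMM) scaling, and differences as log2 fold changes, Zeb1ΔM minus Zeb1WT, with their standard error (SE), from edgeR's quasi-likelihood test with Benjamini-Hochberg adjustment over all genes tested. The TMM factors were 0.566, 0.708 and 0.445 in the Zeb1WT libraries and 0.844, 0.843 and 0.879 in the Zeb1ΔM libraries, and the 20 genes with the most counts took 29.1% to 36.7% and 21.0% to 29.5% of all counts. Scaled by total counts instead, the median of all genes stood at 0.60 rather than 0.03, so each difference below is relative to the median gene. Set against the median of all genes, each list described below as lower or higher kept its side with each library left out. It also did so under both scalings, but a change of scaling moves all genes by nearly the same amount. The scalings therefore could hardly differ here, and this is no check on them. Ribosomal RNA-like transcripts took 6.73% to 12.4% of the counts in Zeb1WT and 4.24% to 14% in Zeb1ΔM. In bulk RNA, fewer cells of a type and less RNA per cell cannot be told apart. Replicates were separate pools of mice, and the p-values measure the spread between these pools. Replicates 1 and 2 of Zeb1ΔM were more alike than any other pair of one group (chi-square per degree of freedom 17.3 against 111 to 206), yet differed by more than sampling noise and were kept as 2 samples. Whether these 2 came from separate pools of mice was not tested.

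*Zeb1* itself was counted at 12.6, 12.9 and 12.3 CPM in Zeb1WT and 4.21, 4.79 and 3.92 CPM in Zeb1ΔM. Each Zeb1ΔM library lay below each Zeb1WT library, with a log2 fold change of -1.55 ± 0.35 (SE) (adjusted p = 0.0123). The count covers the whole gene and does not separate the deleted part from the rest. Without Zeb1ΔM replicate 1 the log2 fold change was the same to 2 decimals, at an adjusted p of 0.0551, and with total counts as the scaling it was -0.98 and not called. In LPS alone the *Zeb1* difference was -1.60 ± 0.36 (SE).

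More genes were lower than higher in Zeb1ΔM under Metformin + LPS. At an adjusted p under 0.05, 169 genes were higher in Zeb1ΔM and 620 were lower, which is 5.87% of the genes tested (1.26% higher and 4.61% lower). Each count of list members called below is to be read beside these shares of all genes. All 38 lists were drawn up with earlier results of these data known, so none of these counts is independent evidence of a direction. Among the genes that fell were chemokines, MHC class II genes, glycolytic enzymes, monocyte-related genes and markers of neutrophils, eosinophils and B cells. Among the genes that rose were *Mfge8*, which bridges macrophages and apoptotic cells, the sphingosine 1-phosphate receptor *S1pr1* and the LPS receptor *Tlr4*. The 3 libraries of a group did not overlap with those of the other in 3275 genes, or 24.4% of those tested. The number of calls depended on single libraries. It was 38 higher and 283 lower without Zeb1ΔM replicate 1, 49 and 315 without Zeb1ΔM replicate 2, 55 and 415 without Zeb1WT replicate 1, and 72 and 393 without Zeb1WT replicate 3. With total counts as the scaling, 3274 genes were higher and 324 were lower, so the split between higher and lower calls depends on the scaling. Among the genes named below, those no longer called with this scaling were *Acp2*, *Arg1*, *Cd44*, *Cdk1*, *Cxcl2*, *Cyba*, *F10*, *Gabarap*, *Hif1a*, *Ifi204*, *Ldha*, *mt-Nd1*, *Mt1*, *Nfkbia*, *Pf4*, *Rac2*, *Slc16a1*, *Sod2*, *Ticam1*, *Tlr1*, *Tnf*, *Trim30a* and *Txn1*, as well as *Zeb1*.

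The fall was steepest among abundant genes. Of the 397 genes with a mean log2 CPM of 9 or more, 32.2% were called lower and 1 was called higher, and their median log2 fold change was -0.63. Of the 4435 genes between 3 and 6, 2.95% were called lower and 2.07% higher, with a median of 0.11. Where a trend with abundance was removed from each library, 147 genes were called higher and 486 lower, and 577 of the 789 calls were shared with the comparison as reported. Among the genes named below, those that lost their call with this trend removed were *Arg1*, *Ccl4*, *Cd44*, *Cd74*, *Cxcl2*, *Cyba*, *F10*, *Fscn1*, *Gapdh*, *Garnl3*, *Hif1a*, *Ifi204*, *Lcn2*, *Ldha*, *mt-Nd1*, *Mt1*, *Nfkbia*, *Pf4*, *Pink1*, *Rac2*, *Sod2*, *Tgfb2*, *Trim30a* and *Txn1*.

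**Figure D1:**
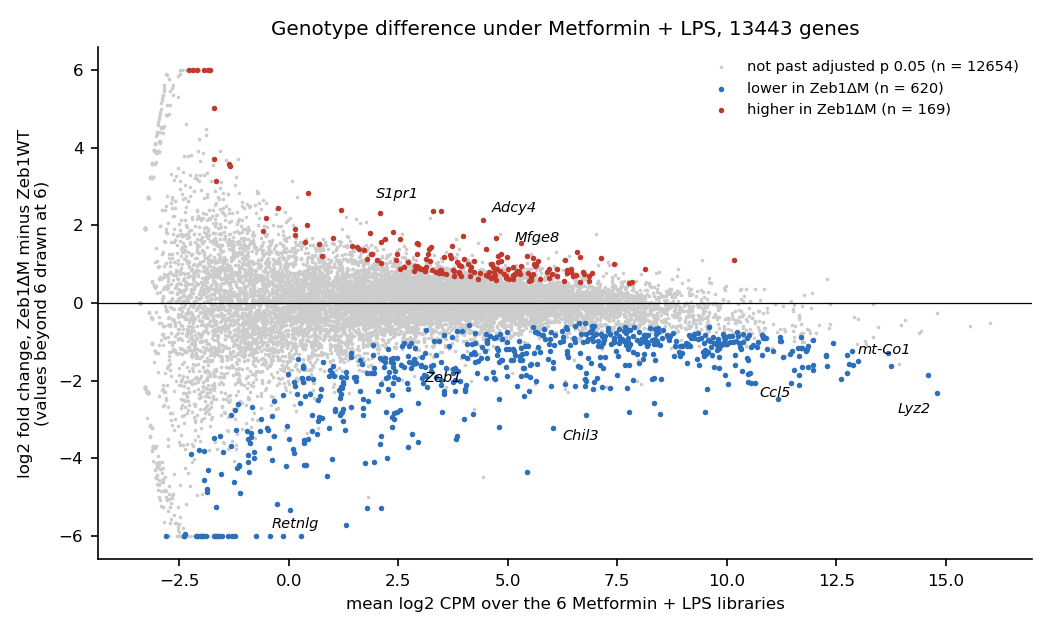
Log2 fold change of each of the 13443 genes (Zeb1ΔM minus Zeb1WT, vertical axis) against its mean log2 CPM over the 6 Metformin + LPS libraries (horizontal axis). Red points are the 169 genes called higher, blue points the 620 called lower at an adjusted p under 0.05, and grey points the rest. The blue points reach to the right edge of the plot, where 1 gene was called higher.

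Both markers of the sort were present in all 6 libraries. *Adgre1*, which encodes F4/80, was counted at 3077, 3140 and 4938 CPM in Zeb1WT and 2849, 2867 and 2974 CPM in Zeb1ΔM, and its difference of -0.36 ± 0.21 (SE) was not past the threshold (adjusted p = 0.367) and stood at 0.27 with total counts as the scaling and at 0.41 with the trend with abundance removed. *Itgam*, which encodes CD11b, was counted at 1442, 1775 and 1699 CPM in Zeb1WT and 2533, 2314 and 1480 CPM in Zeb1ΔM, with overlapping groups. *Timd4*, the phosphatidylserine receptor of large resident macrophages, was counted at 562, 443 and 543 CPM in Zeb1WT and 639, 629 and 718 CPM in Zeb1ΔM. Of 27 tested genes that mark large peritoneal macrophages, 3 rose (*Lbp*, *Tgfb2* and *Garnl3*) and none fell, where 1.26% of all genes were called higher. The median log2 fold change of the list was -0.0029, beside 0.0265 for all genes, and 0.58 with the trend with abundance removed, where 2 were called higher. *Lbp*, which encodes the LPS-binding protein, was counted at 68.8, 72.9 and 42.6 CPM in Zeb1WT and 112, 100 and 120.5 CPM in Zeb1ΔM (log2 fold change 0.85 ± 0.23 (SE), adjusted p = 0.0352). The growth factor *Tgfb2* rose by 1.15 ± 0.31 (SE) (adjusted p = 0.0352). The call of *Lbp* was lost without any 1 of 5 libraries, all but Zeb1WT replicate 2 (adjusted p up to 0.169), that of *Tgfb2* without any 1 of 5, all but Zeb1ΔM replicate 3 (up to 0.190), and that of *Garnl3* without any 1 of the 6 (up to 0.203). The summed level of the list was 56540 to 91500 CPM in Zeb1WT and 55710 to 60200 CPM in Zeb1ΔM. The mesothelial transcription factor *Wt1* was at 0 counts in all 6 libraries.

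Genes of monocytes and small peritoneal macrophages were lower in the Zeb1ΔM libraries. Of 20 tested, 12 fell and none rose, against 4.61% called lower among all genes, and their median was -1.599. The same 20 genes had a median of -0.26 in LPS alone, where 3 were called lower (0.937% of all genes were). *Ly6c2*, the surface marker of inflammatory monocytes, was counted at 124, 158 and 346 CPM in Zeb1WT and 44.2, 68.4 and 30.7 CPM in Zeb1ΔM (log2 fold change -2.13 ± 0.49 (SE), adjusted p = 0.0150). *Ccr2*, the receptor that draws monocytes to CCL2, was at 15.1, 17.8 and 21.8 CPM in Zeb1WT and 5.17, 8.54 and 2.69 CPM in Zeb1ΔM (-1.74 ± 0.36 (SE), adjusted p = 0.00882). *Plac8*, which marks Ly6C-high monocytes, was at 467, 287 and 639.9 CPM in Zeb1WT and 86.6, 122 and 94.8 CPM in Zeb1ΔM, a fall of 2.20 ± 0.37 (SE) (adjusted p = 0.00220). *Ms4a4c* was at 2454, 1823 and 4987 CPM in Zeb1WT and 572, 712 and 990.4 CPM in Zeb1ΔM, a fall of 2.03 ± 0.35 (SE) (adjusted p = 0.00284). In each of these genes the 3 Zeb1ΔM libraries lay below the 3 Zeb1WT libraries. The call of *Ly6c2* was lost without Zeb1WT replicate 3, Zeb1ΔM replicate 1 or Zeb1ΔM replicate 3 (adjusted p up to 0.0944). The number of members called lower ran from 8 to 12 as each library was left out. The summed level of the list overlapped, at 14330 to 25890 CPM in Zeb1WT and 8481 to 15840 CPM in Zeb1ΔM, and most of it was *Fn1*.

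*Lyz2*, the lysozyme gene of macrophages and the locus that carries the Cre insertion in the Zeb1ΔM mice, fell further than any other of the 14 genes of the myeloid lineage list. It was counted at 73810, 35650 and 92570 CPM in Zeb1WT and 11020, 10640 and 18650 CPM in Zeb1ΔM, with a log2 fold change of -2.33 ± 0.37 (SE) (adjusted p = 0.00155). The part of the Cre allele in this difference was not tested. In LPS alone, with the same allele, the *Lyz2* difference was -0.56 ± 0.35 (SE). The test of the difference between Metformin + LPS and LPS gave -1.76 for *Lyz2* and was not called (adjusted p = 0.144). The common gamma chain of Fc receptors, *Fcer1g*, fell by 1.86 ± 0.28 (SE) (adjusted p = 0.00140) and its relative *Tyrobp*, which encodes the adaptor DAP12, fell by 1.19 ± 0.23 (SE) (adjusted p = 0.00574). In this list 5 of 14 fell and none rose, with a median of -0.64, and 3 were called without Zeb1WT replicate 3, Zeb1ΔM replicate 1 or Zeb1ΔM replicate 2.

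Markers of neutrophils, eosinophils and B cells were also lower in Zeb1ΔM. Of 23 neutrophil markers tested, 9 fell and none rose, with 18 fold changes below 0 and 4 above. With total counts as the scaling 9 were called lower and 3 higher. With the trend with abundance removed 7 were called lower and 1 higher. *Retnlg* was counted at 27.5, 13.9 and 17.1 CPM in Zeb1WT and 0, 0.369 and 0.708 CPM in Zeb1ΔM (-5.71 ± 0.88 (SE), adjusted p = 0.00140). *S100a8*, one chain of calprotectin, was at 49.1, 29.9 and 16.5 CPM in Zeb1WT and 3.85, 3.32 and 6.47 CPM in Zeb1ΔM (-2.80 ± 0.58 (SE), adjusted p = 0.00842). The neutrophil list had a median of -2.30, or -2.07 with the 4 genes without counts in 1 group set at their bound, and it also stood at -2.26 in LPS alone. Its summed level was 3354 to 4357 CPM in Zeb1WT and 2567 to 3116 CPM in Zeb1ΔM, most of it from *Hdc*, *Lcn2* and *Padi4*. The granule genes *Elane* and *Mpo* were at 0 counts in all 6 libraries. *Lcn2*, which LPS also induces in macrophages and which encodes an iron-scavenging lipocalin, was at 2013, 1265 and 1588 CPM in Zeb1WT and 513, 513 and 506 CPM in Zeb1ΔM (-1.67 ± 0.35 (SE), adjusted p = 0.00848).

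Of 8 eosinophil markers tested, 3 fell and none rose, with a median of -3.56, or -2.67 with 3 genes at their bound. *Ccr3*, the eotaxin receptor, was counted at 30.1, 20.4 and 30.8 CPM in Zeb1WT and 0.304, 1.21 and 0.567 CPM in Zeb1ΔM (-5.28 ± 0.91 (SE), adjusted p = 0.00302). *Siglecf*, a lectin of eosinophils, was at 24.4, 17.7 and 25.4 CPM in Zeb1WT and 2.59, 1.90 and 1.94 CPM in Zeb1ΔM (-3.39 ± 0.78 (SE), adjusted p = 0.0145). Every Zeb1ΔM library lay far below every Zeb1WT library in both genes. In LPS alone the same list had a median of -0.45, with *Ccr3* at -0.45 ± 0.69 (SE); the test of the difference between Metformin + LPS and LPS gave an adjusted p of 0.0770 for *Ccr3*. The defining granule genes *Epx* and *Prg3* were at 0 counts in all 6 libraries, and the summed level of the list overlapped (4642 to 6532 CPM and 4909 to 5359 CPM) because *Alox15*, which large macrophages also express, made up most of it. The call of *Siglecf* was lost without Zeb1ΔM replicate 1 or Zeb1ΔM replicate 2 (adjusted p up to 0.0683).

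Of 16 B cell markers tested, 8 fell and none rose, with all 16 fold changes below 0 and a median of -2.17. *Ms4a1*, which encodes CD20, was counted at 20.6, 14.4 and 11.1 CPM in Zeb1WT and 2.79, 1.37 and 2.64 CPM in Zeb1ΔM (-2.75 ± 0.34 (SE), adjusted p = 0.000516). *Ighm*, the heavy chain of IgM, was at 118, 108 and 73.5 CPM in Zeb1WT and 18.9, 18.1 and 25.4 CPM in Zeb1ΔM (-2.27 ± 0.29 (SE), adjusted p = 0.000516). The groups did not overlap in either gene, nor in the summed level of the list, which was 184 to 281 CPM in Zeb1WT and 58.9 to 73.9 CPM in Zeb1ΔM. In LPS alone the list had a median of -1.95 and the summed level was 724 to 1030 CPM in Zeb1WT and 204 to 271 CPM in Zeb1ΔM. Of 8 mast cell and basophil markers 2 fell, the mast cell chymase *Cma1* (-2.83 ± 0.66 (SE), adjusted p = 0.0159, lost without Zeb1ΔM replicate 1 or replicate 2 at up to 0.0735) and *Il4*. *Il4* was counted at 1.71, 0.647 and 0.696 CPM in the Zeb1WT libraries and at 0 in all Zeb1ΔM libraries, at least 18.2-fold lower with 3 counts over the group as the floor; its call was lost without any 1 library other than Zeb1WT replicate 2 (adjusted p up to 0.0948). The summed level of the mast cell list was 790.3 to 1312 CPM in Zeb1WT and 823 to 1394 CPM in Zeb1ΔM, mainly *Hdc*. Of 9 T and NK cell markers 2 fell, with 5 fold changes below 0, 4 above and a median of -0.47. One of the 2 was the interleukin-7 receptor *Il7r* (-2.27 ± 0.46 (SE), adjusted p = 0.00768). *Il7r* was at 46.2, 29.3 and 35.1 CPM in Zeb1WT and 7.46, 10.7 and 4.82 CPM in Zeb1ΔM. The summed level of the list, *Il7r* included, was 71.5 to 86.7 CPM against 26.1 to 38.2 CPM. Of 11 dendritic cell markers 3 fell and 1 rose, with the chemokine receptor *Ccr7* at -2.10 ± 0.37 (SE) (adjusted p = 0.00341) and the actin bundler *Fscn1* at 1.22 ± 0.33 (SE) (adjusted p = 0.0362). The call of *Fscn1* was lost without Zeb1WT replicate 1, Zeb1WT replicate 3, Zeb1ΔM replicate 1 or Zeb1ΔM replicate 2 (adjusted p up to 0.154). Of 7 mesothelial and stromal markers tested none was called, and of 8 erythroid and platelet markers 1 fell, *Pf4*. Immune genes that fell in the lists below moved together with these markers of other cell types, and the part of those cells in them was not tested.

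**Figure D2:**
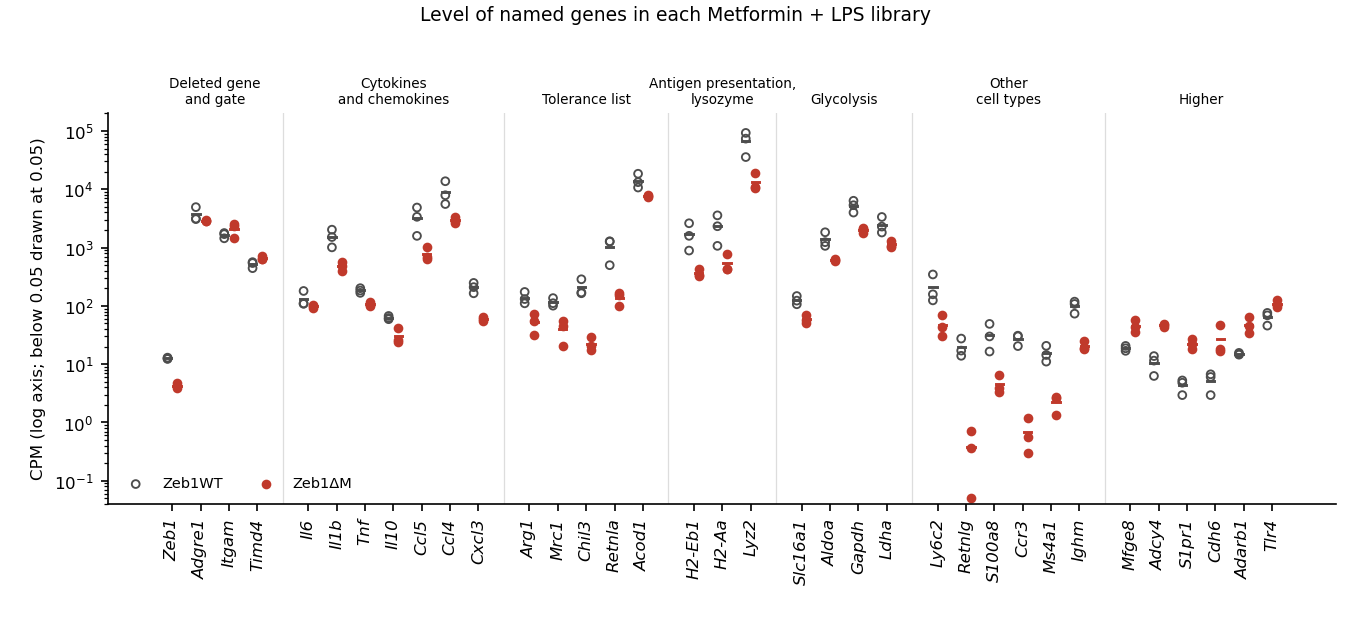
CPM in each library (log axis) for named genes, grouped by role, with Zeb1WT as open circles, Zeb1ΔM as filled circles and the group mean as a bar (values below 0.05 are drawn at 0.05). The points of *Itgam* overlapped between the genotypes, whereas those of *Retnlg*, *Ccr3* and *Ms4a1* were far apart.

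The cytokines that LPS induces were split. *Il6*, the fever and acute phase cytokine, was counted at 110.2, 108 and 180.2 CPM in Zeb1WT and 105, 93.7 and 98.2 CPM in Zeb1ΔM, and its difference of -0.43 ± 0.32 (SE) was not past the threshold (adjusted p = 0.490). *Il1b*, the product of the inflammasome pathway, was at 1516, 1008 and 2027 CPM in Zeb1WT and 566, 478 and 399 CPM in Zeb1ΔM (-1.66 ± 0.36 (SE), adjusted p = 0.0104). *Tnf* was at 167, 183 and 201 CPM in Zeb1WT and 103, 98.6 and 116 CPM in Zeb1ΔM (-0.80 ± 0.19 (SE), adjusted p = 0.0159). *Il1b* and *Tnf* were lower in every Zeb1ΔM library. *Il1a* (-0.68 ± 0.34 (SE), adjusted p = 0.268) and the neutrophil attractant *Cxcl1* (-0.38 ± 0.39 (SE), adjusted p = 0.633) were not past the threshold, and with total counts as the scaling *Il6*, *Il1a* and *Cxcl1* stood at 0.21, 0.0032 and 0.28. The IL-36 cytokine *Il1f9*, which neutrophils also express, was at 58.8, 40 and 37.7 CPM in Zeb1WT and 6.08, 4.58 and 6.37 CPM in Zeb1ΔM (-3.00 ± 0.55 (SE), adjusted p = 0.00396). Of 22 cytokines tested 5 fell and none rose, with a median of -0.57; in LPS alone the median was -0.79 and 4 were called lower. The call of *Tnf* was lost without Zeb1WT replicate 3, Zeb1ΔM replicate 1 or Zeb1ΔM replicate 2 (adjusted p up to 0.0718), and with total counts as the scaling.

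Chemokines among the genes that fell included ligands for monocytes and for neutrophils. Of 25 tested, 10 fell and none rose, and their median was -1.01. *Ccl5*, a chemokine of the CC family, was counted at 3368, 1587 and 4861 CPM in Zeb1WT and 680.1, 631 and 1023 CPM in Zeb1ΔM (-2.07 ± 0.32 (SE), adjusted p = 0.00155). *Ccl4*, which attracts monocytes and T cells, was at 7890, 5578 and 13730 CPM in Zeb1WT and 2826, 2679 and 3378 CPM in Zeb1ΔM (-1.61 ± 0.36 (SE), adjusted p = 0.0112). *Cxcl3*, a ligand of the neutrophil receptor CXCR2, was at 248, 164 and 209.7 CPM in Zeb1WT and 64.2, 59 and 55.4 CPM in Zeb1ΔM (-1.80 ± 0.40 (SE), adjusted p = 0.0123). The groups did not overlap in these 3 genes, and the lowest Zeb1WT library was replicate 2 in each. *Ccl22*, made by alternatively activated macrophages and dendritic cells, fell by 2.96 ± 0.47 (SE) (adjusted p = 0.00176), *Ccl24* fell by 1.65 ± 0.35 (SE) (adjusted p = 0.00960), *Cxcl2* fell by 1.26 ± 0.33 (SE) (adjusted p = 0.0314) and *Pf4* fell by 1.31 ± 0.33 (SE) (adjusted p = 0.0234). The interferon-induced *Cxcl10* was at 27140, 18480 and 37050 CPM in Zeb1WT and 9615, 8863 and 9489 CPM in Zeb1ΔM and missed the threshold (adjusted p = 0.152). In LPS alone the chemokine median was -0.84 and 4 were called lower, with *Cxcl3* at -1.89 ± 0.40 (SE) and *Ccl4* at -1.53 ± 0.35 (SE). From 6 to 10 chemokines were called as each library was left out. The call of *Cxcl3* was lost without Zeb1ΔM replicate 2 (adjusted p = 0.0523), that of *Ccl4* without Zeb1WT replicate 3, Zeb1ΔM replicate 1 or Zeb1ΔM replicate 2 (up to 0.0583), and those of *Cxcl2* and *Pf4* without any 1 library other than Zeb1WT replicate 2 (up to 0.142 and 0.118).

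The receptors and adaptors that sense LPS moved in both directions. *Tlr4* was counted at 45.9, 75.8 and 68.8 CPM in Zeb1WT and 128, 102 and 96.4 CPM in Zeb1ΔM and rose by 0.77 ± 0.21 (SE) (adjusted p = 0.0366). *Tlr1*, the partner of TLR2 for bacterial lipopeptides, was at 36.6, 33.8 and 53.2 CPM in Zeb1WT and 19.5, 21.8 and 14.1 CPM in Zeb1ΔM and fell by 1.16 ± 0.25 (SE) (adjusted p = 0.00985). *Ticam1*, which encodes the adaptor TRIF, fell by 0.78 ± 0.22 (SE) (adjusted p = 0.0421). With *Lbp*, 2 of 16 rose and 2 fell, and the median was 0.07. Of 18 NF-kB subunits and inhibitors 1 fell, or 5.56%, which is near the 4.61% called lower among all genes. It was the inhibitor *Nfkbia* (-1.19 ± 0.28 (SE), adjusted p = 0.0167), at 4670, 3688 and 8961 CPM in Zeb1WT and 2334, 2270 and 2970 CPM in Zeb1ΔM. The subunit *Nfkb1* was at 296, 116 and 199.5 CPM in Zeb1WT and 119, 116 and 165 CPM in Zeb1ΔM with overlapping groups. Each of these calls depended on single libraries. *Tlr4* lost its call without Zeb1WT replicate 1, Zeb1WT replicate 3, Zeb1ΔM replicate 1 or Zeb1ΔM replicate 2 (adjusted p up to 0.175), *Ticam1* without Zeb1WT replicate 1, Zeb1WT replicate 2, Zeb1ΔM replicate 1 or Zeb1ΔM replicate 2 (up to 0.154), *Tlr1* without Zeb1WT replicate 3 (0.0529) and *Nfkbia* without Zeb1WT replicate 3, Zeb1ΔM replicate 1 or Zeb1ΔM replicate 2 (up to 0.0815).

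Genes that restrain the response were lower or not called. Of 23 brakes on Toll-like receptor signalling 3 fell and none rose, with a median of -0.37. *Il1rn*, the interleukin-1 receptor antagonist, was counted at 11680, 8509 and 19810 CPM in Zeb1WT and 3305, 3229 and 4859 CPM in Zeb1ΔM (-1.81 ± 0.32 (SE), adjusted p = 0.00341). *Il1r2*, the decoy receptor of interleukin-1, was at 18.9, 19.4 and 9.21 CPM in Zeb1WT and 0.964, 2.21 and 1.98 CPM in Zeb1ΔM (-3.20 ± 0.65 (SE), adjusted p = 0.00733). *Il10*, the main anti-inflammatory cytokine of macrophages, was at 62, 59.1 and 67.2 CPM in Zeb1WT and 26.4, 24.3 and 41.4 CPM in Zeb1ΔM, without overlap. Its difference of -1.03 ± 0.33 (SE) missed the threshold (adjusted p = 0.0760). In LPS alone it was -2.09 ± 0.34 (SE) (adjusted p = 0.00443), and the test against LPS was not called for *Il10* (adjusted p = 0.330). *Trim30a* fell by 0.82 ± 0.21 (SE) (adjusted p = 0.0274), a call that was lost without Zeb1WT replicate 3, Zeb1ΔM replicate 1 or Zeb1ΔM replicate 2 (up to 0.117).

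The list of tolerance and alternative activation held 24 tested genes. Like the other lists it was drawn up with earlier results of these libraries known, and its count is no independent evidence of a direction. Of the 24 genes 7 fell and none rose, and the median was -0.29. *Arg1*, the arginase of alternatively activated macrophages, was counted at 111, 131 and 173 CPM in Zeb1WT and 55.3, 72.7 and 31.4 CPM in Zeb1ΔM (-1.38 ± 0.36 (SE), adjusted p = 0.0297). *Mrc1*, the mannose receptor CD206, was at 111, 101 and 136 CPM in Zeb1WT and 55.5, 45.8 and 20.7 CPM in Zeb1ΔM (-1.51 ± 0.33 (SE), adjusted p = 0.0102). *Chil3*, the chitinase-like protein Ym1, was at 165, 169.7 and 286 CPM in Zeb1WT and 17.5, 28.8 and 20.1 CPM in Zeb1ΔM (-3.22 ± 0.61 (SE), adjusted p = 0.00462). *Retnla*, the secreted FIZZ1, was at 1263, 498 and 1282 CPM in Zeb1WT and 152, 165 and 98.3 CPM in Zeb1ΔM (-2.87 ± 0.54 (SE), adjusted p = 0.00481). In all 4 genes the Zeb1ΔM libraries lay below the Zeb1WT libraries, and *Mrc1*, *Chil3* and *Retnla* also stand in the monocyte and small macrophage list. *Acod1*, the enzyme that makes itaconate, was at 13230, 10710 and 18450 CPM in Zeb1WT and 7592, 7510 and 8009 CPM in Zeb1ΔM, a difference of -0.88 ± 0.31 (SE) that missed the threshold (adjusted p = 0.110) and stood at 0.0052 once the trend with abundance was removed. *Retnla* differed by -0.29 ± 0.51 (SE) in LPS alone (adjusted p = 0.864) and by -2.51 in LPS + LPS (adjusted p = 0.0345). The test against LPS gave a difference of -2.59 (adjusted p = 0.144), and that against LPS + LPS gave -0.36 (adjusted p = 0.906), neither of them called. In LPS alone *Arg1* differed by -1.37 ± 0.37 (SE) (adjusted p = 0.0784). The call of *Arg1* was lost without Zeb1WT replicate 3, Zeb1ΔM replicate 1 or Zeb1ΔM replicate 3 (adjusted p up to 0.116).

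Antiviral and antigen presentation genes differed in how far they moved. Of 35 interferon-stimulated genes 5 fell and none rose, with 32 of the 35 fold changes below 0 and a median of -0.59. *Ifit3b* was counted at 200.4, 179 and 412 CPM in Zeb1WT and 68, 71.5 and 52.4 CPM in Zeb1ΔM (-2.04 ± 0.44 (SE), adjusted p = 0.0104) and the DNA sensor *Ifi204* at 4557, 3406 and 7482 CPM in Zeb1WT and 2145, 2303 and 2454 CPM in Zeb1ΔM (-1.16 ± 0.24 (SE), adjusted p = 0.00928). Their calls were lost without Zeb1WT replicate 3 and Zeb1ΔM replicate 1 respectively (0.0604 and 0.0505), 1 to 8 members of the list were called as each library was left out, and 1 was called with the trend with abundance removed. None of 16 guanylate-binding proteins and related GTPases was called, and their median was -0.06. Of 14 MHC class II genes 6 fell and none rose, with a median of -1.34. *H2-Eb1* was counted at 1589, 888 and 2612 CPM in Zeb1WT and 328, 336 and 428 CPM in Zeb1ΔM (-2.22 ± 0.33 (SE), adjusted p = 0.00125). *H2-Aa* was at 2322, 1070 and 3567 CPM in Zeb1WT and 429, 432 and 771 CPM in Zeb1ΔM (-2.09 ± 0.36 (SE), adjusted p = 0.00302). *Cd74*, the invariant chain, was at 3977, 2916 and 12970 CPM in Zeb1WT and 1203, 1214 and 2366 CPM in Zeb1ΔM (-2.05 ± 0.48 (SE), adjusted p = 0.0155). In all 3 genes replicate 3 was the highest library of both genotypes. In LPS alone the MHC class II median was -0.72 and 1 gene was called lower. Of the MHC class II genes, 3 were called without Zeb1ΔM replicate 1 and 4 without Zeb1WT replicate 3 or Zeb1ΔM replicate 2. With only the groups compared 3 were called, and with the trend with abundance removed 3 were called and the median was -0.75. The call of *Cd74* was lost without Zeb1WT replicate 3, Zeb1ΔM replicate 1 or Zeb1ΔM replicate 2 (adjusted p up to 0.126).

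Of 26 genes of glycolysis and lactate handling 10 fell and none rose, and the median was -0.79, beside -0.45 in LPS alone, where 1 was called lower. *Slc16a1*, the lactate transporter MCT1, was counted at 107, 148 and 123 CPM in Zeb1WT and 50.8, 69.1 and 57 CPM in Zeb1ΔM (-1.09 ± 0.18 (SE), adjusted p = 0.00243). *Aldoa*, the aldolase of glycolysis, was at 1238, 1069 and 1830 CPM in Zeb1WT and 591, 613 and 641 CPM in Zeb1ΔM (-1.16 ± 0.20 (SE), adjusted p = 0.00259). *Gapdh* was at 5325, 3984 and 6347 CPM in Zeb1WT and 2150, 2090 and 1798 CPM in Zeb1ΔM (-1.37 ± 0.26 (SE), adjusted p = 0.00468). These 3 genes were lower in every Zeb1ΔM library. *Ldha*, which makes lactate, fell by 1.13 ± 0.23 (SE) (adjusted p = 0.00768), and *Hif1a*, the transcription factor that drives glycolysis in activated macrophages, fell by 0.85 ± 0.22 (SE) (adjusted p = 0.0263). The glucose transporter *Slc2a1* was at 119, 146 and 165 CPM in Zeb1WT and 52.7, 70.9 and 125 CPM in Zeb1ΔM and missed the threshold (-0.79 ± 0.24 (SE), adjusted p = 0.0641). Most of these genes are abundant, and with the trend with abundance removed 4 of the 26 were called lower and 1 higher, with a median of -0.37. With total counts as the scaling 4 were lower and 4 higher, and the median of the list was -0.18 where that of all genes was 0.60. Without Zeb1WT replicate 3, Zeb1ΔM replicate 1 or Zeb1ΔM replicate 2, 6 of the 26 were called. The call of *Hif1a* was lost without Zeb1WT replicate 3, Zeb1ΔM replicate 1 or Zeb1ΔM replicate 2 (adjusted p up to 0.131).

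Amino acid transport, stress and nutrient sensing genes were not called. None of 24 amino acid transporters, 22 genes of the ATF4 stress response or 27 regulators of mTORC1 and AMPK passed the threshold, and their medians were 0.03, -0.05 and 0.13. The neutral amino acid transporter *Slc7a8* was counted at 76.1, 130.2 and 133 CPM in Zeb1WT and 145, 156 and 119.9 CPM in Zeb1ΔM (0.31 ± 0.24 (SE), adjusted p = 0.506), with overlapping groups. Likewise none of 20 heat shock proteins (median -0.09), 20 genes of sterol synthesis and lipid export (-0.10) or 24 complement and scavenger receptor genes (-0.01) was called. Of 23 AP-1 and immediate early genes 1 rose, or 4.35%, beside 1.26% called higher among all genes. It was the AP-1 subunit *Fosl1* (1.58 ± 0.39 (SE), adjusted p = 0.0222), at 1.05, 0.740 and 0.387 CPM in Zeb1WT and 1.72, 2.06 and 2.64 CPM in Zeb1ΔM. Of 20 cell cycle genes 2 fell, the kinases *Cdk1* (-1.84 ± 0.50 (SE), adjusted p = 0.0352) and *Plk1*, the latter counted at 0.476, 0.324 and 1.16 CPM in Zeb1WT and 0, 0 and 0 CPM in Zeb1ΔM. The Zeb1WT level of *Plk1* was at least 11.96-fold higher, with 3 counts over the group as the floor (adjusted p = 0.00833). *Fosl1* lost its call without Zeb1WT replicate 2, Zeb1WT replicate 3, Zeb1ΔM replicate 2 or Zeb1ΔM replicate 3 (adjusted p up to 0.113), and *Cdk1* without Zeb1WT replicate 1, Zeb1WT replicate 3, Zeb1ΔM replicate 1 or Zeb1ΔM replicate 2 (up to 0.122).

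Transcripts of the mitochondrial genome had fold changes below 0, and 2 were called. *mt-Co1*, the first subunit of cytochrome c oxidase, was counted at 13650, 9468 and 14240 CPM in Zeb1WT and 3437, 3507 and 5587 CPM in Zeb1ΔM (-1.58 ± 0.25 (SE), adjusted p = 0.00171). *mt-Nd1*, a complex I subunit, was at 4715, 3182 and 5847 CPM in Zeb1WT and 1445, 1342 and 2702 CPM in Zeb1ΔM (-1.32 ± 0.29 (SE), adjusted p = 0.0105). These 2 of 12 mitochondrial transcripts were called lower, all 12 fold changes were below 0, and the median was -0.76, close to the -0.75 of LPS alone. The mitochondrial genome took 2.05% to 2.79% of all counts in Zeb1WT and 1.19% to 1.91% in Zeb1ΔM. None of 36 nuclear complex I subunits was called (median 0.08). Of 78 proteins of the mitochondrial ribosome 2 rose (2.56%, beside 1.26% of all genes) and none fell. Of their fold changes 64 were above 0, and the median was 0.20, beside 0.23 in LPS alone. *Mrps28* was at 6.37, 6.61 and 6.34 CPM in Zeb1WT and 11.2, 11.4 and 11.8 CPM in Zeb1ΔM and rose by 0.83 ± 0.20 (SE) (adjusted p = 0.0209), a call lost without any 1 library other than Zeb1WT replicate 2 (up to 0.0733). The call of *mt-Nd1* was lost without Zeb1ΔM replicate 1 or Zeb1ΔM replicate 2 (up to 0.0652).

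Genes of the small-subunit processome list, which act in assembling the cytosolic ribosome in the nucleolus, leaned upward. Of 45 tested 3 rose and none fell, 42 fold changes were above 0, and the median was 0.43, beside 0.11 in LPS alone. *Rrs1*, a list member that acts on the large subunit, was counted at 28.4, 31.9 and 21.6 CPM in Zeb1WT and 46.1, 47.3 and 42 CPM in Zeb1ΔM (0.72 ± 0.17 (SE), adjusted p = 0.0141). *Ngdn* was at 25.7, 24.3 and 23.1 CPM in Zeb1WT and 35.7, 36.5 and 46.7 CPM in Zeb1ΔM (0.70 ± 0.17 (SE), adjusted p = 0.0185). *Wdr3* was at 20.6, 30.4 and 17.8 CPM in Zeb1WT and 40.3, 40.6 and 30.6 CPM in Zeb1ΔM, without overlap, and missed the threshold (0.69 ± 0.21 (SE), adjusted p = 0.0602). The 3 calls of the list were not stable: 0 to 8 members were called as each library was left out, *Rrs1* lost its call without Zeb1WT replicate 3, Zeb1ΔM replicate 1 or Zeb1ΔM replicate 2 (adjusted p up to 0.0831), and *Ngdn* without Zeb1WT replicate 3 or Zeb1ΔM replicate 3 (up to 0.0820). The summed level was 1520 to 1864 CPM in Zeb1WT and 2057 to 2061 CPM in Zeb1ΔM, without overlap.

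Antioxidant and oxidase genes fell in part. Of 28 superoxide and antioxidant genes 6 fell and none rose, with a median of -0.20. *Sod2*, the superoxide dismutase of mitochondria, was counted at 4591, 3127 and 7071 CPM in Zeb1WT and 1879, 1902 and 2794 CPM in Zeb1ΔM (-1.17 ± 0.26 (SE), adjusted p = 0.0122). Thioredoxin *Txn1* fell by 1.06 ± 0.24 (SE) (adjusted p = 0.0123) and the metallothionein *Mt1* fell by 1.24 ± 0.29 (SE) (adjusted p = 0.0164). Of 9 genes of the NADPH oxidase and nitric oxide list 2 fell, *Rac2* (-0.89 ± 0.21 (SE), adjusted p = 0.0181) and *Cyba* (-0.94 ± 0.27 (SE), adjusted p = 0.0437). None of the antioxidant or oxidase genes was called lower with the trend with abundance removed or with total counts as the scaling. Under these settings 2 and 5 antioxidant genes were called higher. From 0 to 7 antioxidant genes were called lower as each library was left out. *Sod2* and *Rac2* lost their calls without Zeb1WT replicate 3, Zeb1ΔM replicate 1 or Zeb1ΔM replicate 2 (adjusted p up to 0.0707 and 0.0953), *Txn1* without Zeb1WT replicate 1, Zeb1ΔM replicate 1 or Zeb1ΔM replicate 2 (up to 0.0672), *Mt1* without Zeb1WT replicate 1, Zeb1WT replicate 3, Zeb1ΔM replicate 1 or Zeb1ΔM replicate 2 (up to 0.0907) and *Cyba* without any 1 library other than Zeb1WT replicate 2 (up to 0.216). *Tspo*, a protein of the outer mitochondrial membrane, was at 1031, 786 and 1837 CPM in Zeb1WT and 489, 487 and 554 CPM in Zeb1ΔM and fell by 1.26 ± 0.25 (SE) (adjusted p = 0.00667).

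Autophagy genes included rises and 1 fall. Of 32 tested 4 rose and 1 fell, with a median of 0.25. *Gabarap*, of the ATG8 family that builds autophagosomes, was counted at 498, 294 and 509 CPM in Zeb1WT and 190.0, 213 and 197 CPM in Zeb1ΔM and fell by 1.12 ± 0.20 (SE) (adjusted p = 0.00332). Its relative *Map1lc3a* was at 4.38, 5.46 and 3.79 CPM in Zeb1WT and 10.2, 8.64 and 9.54 CPM in Zeb1ΔM and rose by 1.05 ± 0.25 (SE) (adjusted p = 0.0194). *Optn*, a receptor for damaged mitochondria, was at 81.9, 105 and 87.2 CPM in Zeb1WT and 131, 137 and 179 CPM in Zeb1ΔM and rose by 0.71 ± 0.16 (SE) (adjusted p = 0.0153). The mitophagy kinase *Pink1* was called higher, although its groups overlapped (3.71, 4.81 and 9.90 CPM in Zeb1WT and 20.9, 20.3 and 8.78 CPM in Zeb1ΔM). The cargo receptor *Sqstm1* was not called (-0.15 ± 0.20 (SE), adjusted p = 0.717), and stood at 0.44 with total counts as the scaling. The rises rested on single libraries: *Optn* lost its call without Zeb1WT replicate 1, Zeb1WT replicate 3 or Zeb1ΔM replicate 3 (adjusted p up to 0.0770), *Map1lc3a* without Zeb1WT replicate 1, Zeb1WT replicate 3 or Zeb1ΔM replicate 1 (up to 0.0939) and *Pink1* without Zeb1WT replicate 1, Zeb1WT replicate 2, Zeb1ΔM replicate 1 or Zeb1ΔM replicate 2 (up to 0.180). *Gabarap* kept its call as each library was left out.

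Of 11 genes tied to ZEB1 in epithelial-to-mesenchymal transition, 4 fell, one of them the deleted gene *Zeb1* itself. Without Zeb1ΔM replicate 1, 1 of the 11 was called, and without Zeb1ΔM replicate 2, 2 were. *Timp1*, an inhibitor of matrix metalloproteinases, was counted at 453, 288 and 1148 CPM in Zeb1WT and 89.5, 107 and 72 CPM in Zeb1ΔM (-2.81 ± 0.38 (SE), adjusted p = 0.00063). The hyaluronan receptor *Cd44* fell by 0.89 ± 0.22 (SE) (adjusted p = 0.0234) and the tight junction gene *Cldn1*, close to the limit of counting, fell by 3.92 ± 1.05 (SE) (adjusted p = 0.0336). The intermediate filament gene *Vim* was at 798, 598 and 714 CPM in Zeb1WT and 399, 366 and 184 CPM in Zeb1ΔM and missed the threshold (adjusted p = 0.0535). Without Zeb1WT replicate 3, Zeb1ΔM replicate 1 or Zeb1ΔM replicate 2 the call of *Cd44* was lost (up to 0.0937), and without Zeb1WT replicate 1, Zeb1WT replicate 2, Zeb1ΔM replicate 1 or Zeb1ΔM replicate 2 that of *Cldn1* (up to 0.130). Of 20 matrix proteases and coagulation genes 6 fell and 1 rose, with a median of -0.62. The collagenase *Mmp13* fell by 1.47 ± 0.28 (SE) (adjusted p = 0.00551) and coagulation factor *F10* fell by 0.85 ± 0.18 (SE) (adjusted p = 0.0100, 0.0547 without Zeb1ΔM replicate 2).

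**Figure D3:**
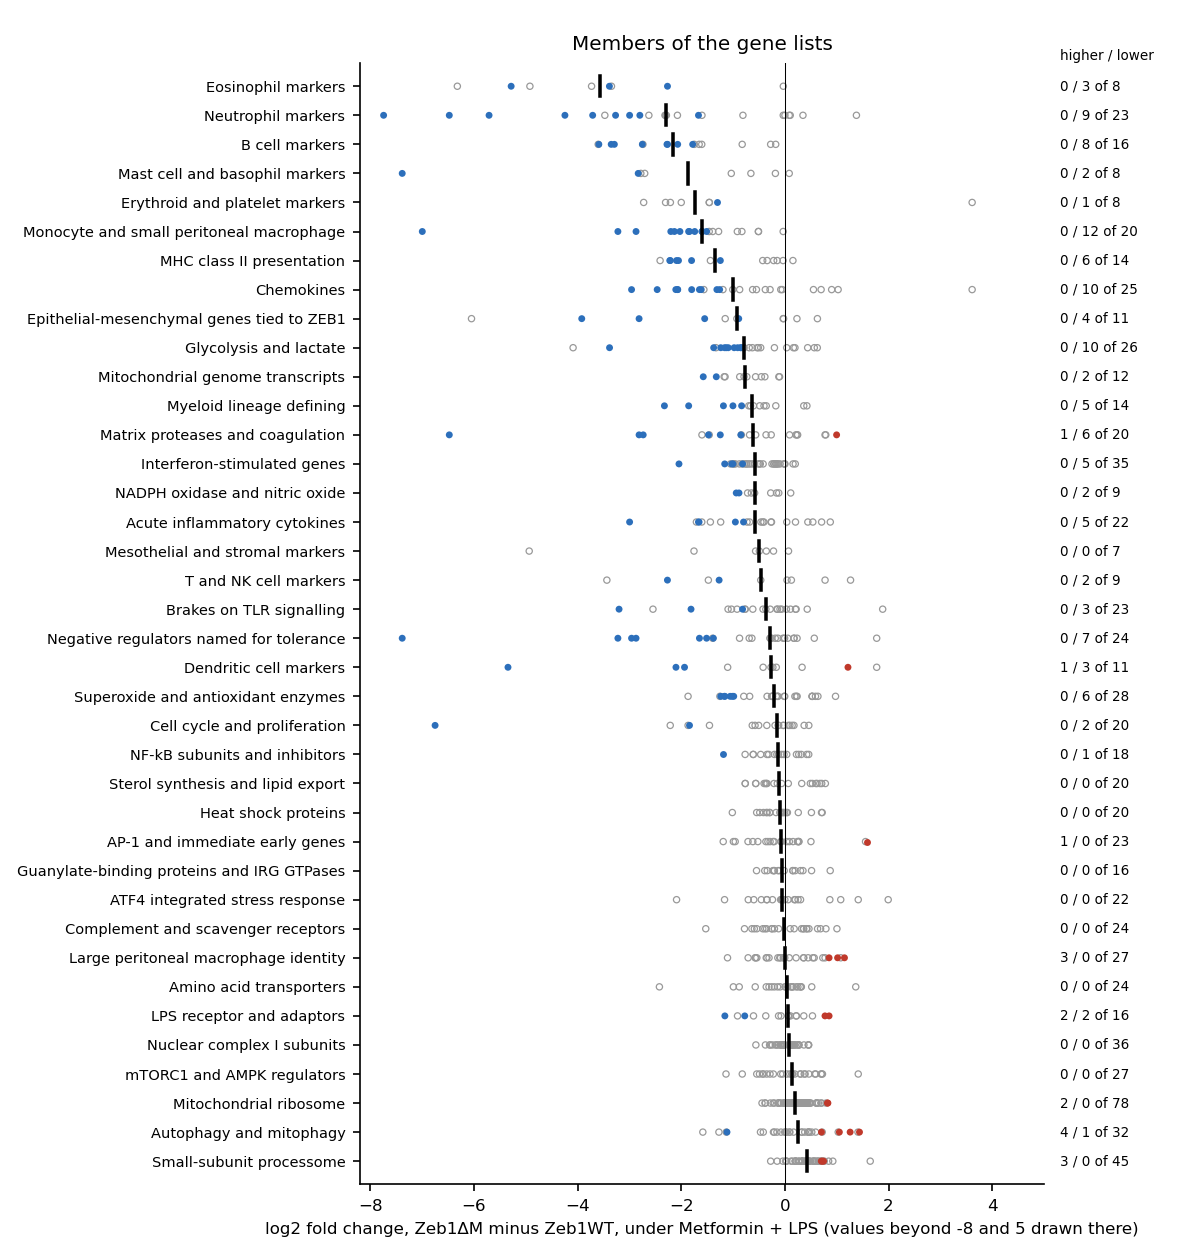
Log2 fold change (Zeb1ΔM minus Zeb1WT, Metformin + LPS) of every tested member of the 38 gene lists. Filled points are called higher (red) or lower (blue), open points are not called, black bars are medians, and the counts at the right give members higher and lower. The eosinophil, neutrophil and B cell lists have the lowest medians (-3.56, -2.30 and -2.17), and the processome list has the highest median, 0.43.

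The largest rises among genes with a mean log2 CPM of at least 3 and no overlap between the groups were drawn from 112 genes. *Cdh6*, a cadherin, was counted at 2.95, 6.70 and 6.04 CPM in Zeb1WT and 17, 18 and 47 CPM in Zeb1ΔM (2.37 ± 0.49 (SE), adjusted p = 0.00861). *S1pr1*, which guides lymphocyte and macrophage migration, was at 2.95, 4.81 and 5.26 CPM in Zeb1WT and 22.4, 18 and 27.4 CPM in Zeb1ΔM (2.37 ± 0.44 (SE), adjusted p = 0.00396). *Adcy4*, an adenylate cyclase, was at 6.28, 11.5 and 13.8 CPM in Zeb1WT and 49, 44.1 and 47.3 CPM in Zeb1ΔM (2.15 ± 0.42 (SE), adjusted p = 0.00614). In *Cdh6* the highest library was Zeb1ΔM replicate 3, well above the others of its group, whereas the 3 Zeb1ΔM libraries of *Adcy4* lay close together. *Adarb1*, which edits adenosine to inosine in RNA, was at 14.6, 15.6 and 14.9 CPM in Zeb1WT and 65, 44.5 and 34.3 CPM in Zeb1ΔM (1.67 ± 0.26 (SE), adjusted p = 0.00155). *Mfge8* was at 16.9, 20.6 and 18.7 CPM in Zeb1WT and 43, 35.5 and 57.8 CPM in Zeb1ΔM (1.28 ± 0.18 (SE), adjusted p = 0.000997). The efflux pump *Abcb1b* rose by 1.46 ± 0.25 (SE) (adjusted p = 0.00319). These 6 genes kept their calls as each library was left out, and in LPS alone their differences ran from -0.84 to 0.18, with none called. The test of the difference from LPS was called for *S1pr1* and *Adarb1*, described below. It was not called for *Cdh6*, *Adcy4*, *Mfge8* and *Abcb1b* (adjusted p = 0.157, 0.0611, 0.0770 and 0.0773). In LPS + LPS *Mfge8* was called higher by 1.32 (adjusted p = 0.00154), and *Adcy4* stood at 2.15 without a call (adjusted p = 0.144). Of the other genes with the largest rises, *Fscn1* was also called higher in LPS alone (1.87, adjusted p = 0.00918) and the talin gene *Tln2* in LPS + LPS (2.77, adjusted p = 0.0177). Under Metformin + LPS *Tln2* rose by 1.74 ± 0.45 (SE) (adjusted p = 0.0292), a call lost without any 1 library other than Zeb1ΔM replicate 3 (up to 0.142).

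The largest falls were drawn from 373 genes. The Fc-like receptor *Lilra6* was counted at 41.3, 33.1 and 69.9 CPM in Zeb1WT and 3.35, 5.32 and 4.67 CPM in Zeb1ΔM (-3.43 ± 0.74 (SE), adjusted p = 0.0104). *Cd24a*, a surface protein of B cells and granulocytes, was at 406, 246 and 266 CPM in Zeb1WT and 40.8, 43.7 and 38.8 CPM in Zeb1ΔM (-2.90 ± 0.66 (SE), adjusted p = 0.0138). *Bcl2a1d* was at 2193, 991 and 2819 CPM in Zeb1WT and 271, 295 and 291 CPM in Zeb1ΔM (-2.81 ± 0.30 (SE), adjusted p = 0.000206). *Bcl2a1a* was at 849, 422 and 1192 CPM in Zeb1WT and 134, 138 and 144 CPM in Zeb1ΔM (-2.57 ± 0.29 (SE), adjusted p = 0.000209). The last pair belong to the A1 family of near-identical survival genes of the BCL2 group, so reads shared between its copies make their separate values uncertain. Among these 15 falls also stood *Chil3*, *Retnla*, *Timp1*, *Il1f9*, *S100a8*, *Lyz2* and *Il7r*, described above. The calls of *Lilra6* and *Cd24a* were lost without Zeb1ΔM replicate 1 (adjusted p = 0.0601 and 0.0642), and that of *Cd24a* also without Zeb1ΔM replicate 2.

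The E-box CACCTG was searched on both strands in promoter windows of RefSeq (GRCm38.p6, 250 bases before to 50 after each start). Windows were at hand for 80.3% of the protein-coding genes tested, 124 of the 161 called higher and 435 of the 544 called lower, and 19.7% of the genes with a window held the motif. Since the called genes with a window were just under 80%, no share is given for them and that check is void. A set of 62 named genes was looked up, without those named only as list members. It held the genes in the study's text, the 15 largest rises, the 15 largest falls and the 10 smallest p for the difference from LPS. Of these 62, 48 had a window and 4 held the motif before the start. Genes without a window were not searched. The 4 leave out the bases after the start, which the 19.7% includes, so these values are not compared. Stretches of 106 bases around it are shown for 1 gene that rose, *Adcy4*, and 2 that fell, *Il1f9* and *Retnlg*, read in the direction of the gene, with the motif in capitals. They lie at chr14:55784175-55784280 on the minus strand, chr2:24186289-24186394 on the plus strand and chr16:48872456-48872561 on the plus strand, and the motif begins 158, 137 and 102 bases before the start.
Adcy4: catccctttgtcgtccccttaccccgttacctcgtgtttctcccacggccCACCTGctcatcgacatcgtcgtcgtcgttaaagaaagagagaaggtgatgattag
Il1f9: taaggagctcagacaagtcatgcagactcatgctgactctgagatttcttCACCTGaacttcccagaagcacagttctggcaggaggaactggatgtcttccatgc
Retnlg: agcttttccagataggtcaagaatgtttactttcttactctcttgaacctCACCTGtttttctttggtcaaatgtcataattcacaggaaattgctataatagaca
A match is a description of these letters and does not show that ZEB1 binds there.

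The genotype difference was then set beside that in LPS alone, whose 6 libraries are not shared with it. The labels give the Metformin + LPS libraries another run of library codes than the other 12, and ribosomal RNA-like transcripts took 0.287% to 2.29% of the counts in those 12, so the treatment and the set of libraries cannot be told apart in the level of a gene. In LPS alone 1.15% of the genes tested were called, 28 higher and 126 lower. Of the 789 genes called under Metformin + LPS, 647 (82%) had a fold change of the same sign in LPS alone, against 57.2% of all genes. The calls shared by both treatments were 57, which is 7.22% of the Metformin + LPS calls and 37.0% of the LPS calls, and 54 of them had the same sign. Across the 13443 genes Spearman's rho between the 2 sets of fold changes was 0.171, a description over genes that share libraries and depth.

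The difference between the 2 genotype differences was tested itself. It was called for 21 genes, 11 higher under Metformin + LPS (0.0818%) and 10 lower (0.0744%), which is 0.156% of the genes tested (1832 genes at an unadjusted p under 0.05). The count was 6 without Zeb1WT replicate 1, 70 without Zeb1WT replicate 2 and 3 without Zeb1WT replicate 3, Zeb1ΔM replicate 1 or Zeb1ΔM replicate 2. *Procr*, the endothelial protein C receptor, was counted at 19.2, 17.7 and 16.2 CPM in Zeb1WT and 37.4, 30.1 and 38.5 CPM in Zeb1ΔM under Metformin + LPS and at 99.5, 106 and 102 CPM in Zeb1WT and 34.3, 19.9 and 46.3 CPM in Zeb1ΔM in LPS alone. The Zeb1ΔM libraries were thus the higher group under Metformin + LPS and the lower group in LPS, with fold changes of 1.00 ± 0.23 (SE) and -1.62 ± 0.23 (SE) and a difference of 2.61 ± 0.33 (SE) (adjusted p = 0.00245). The fold change of *Procr* within Metformin + LPS was no longer called without Zeb1WT replicate 3 or Zeb1ΔM replicate 1 (adjusted p up to 0.0774). *Crem*, a repressor and activator of cAMP-driven transcription, was at 55.5, 53.9 and 54.8 CPM in Zeb1WT and 100, 94.9 and 158 CPM in Zeb1ΔM under Metformin + LPS and at 145, 147 and 123 CPM in Zeb1WT and 66.2, 41.1 and 71.6 CPM in Zeb1ΔM in LPS alone, a difference of 2.32 ± 0.30 (SE) (adjusted p = 0.00245). Its fold changes were 1.10 ± 0.21 (SE) under Metformin + LPS and -1.21 ± 0.21 (SE) in LPS, both called. These 2 differences kept their calls in all 16 alternatives tried.

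*S1pr1*, *Prdm1*, *Sgk1*, *Adarb1*, *Arhgap25* and *Tcf20* also had a difference above 0. Within LPS alone, *Prdm1* and *Sgk1* were called lower in Zeb1ΔM, whereas *S1pr1* (-0.84, adjusted p = 0.370), *Adarb1* (-0.22, adjusted p = 0.764), *Arhgap25* (-0.72, adjusted p = 0.0798) and *Tcf20* (-1.03, adjusted p = 0.0525) were not called. *S1pr1* was at 29.4, 40.9 and 42.4 CPM in Zeb1WT and 27.4, 12.9 and 22.6 CPM in Zeb1ΔM in LPS alone, so that the Zeb1WT libraries lay lower under Metformin + LPS than in LPS and the Zeb1ΔM libraries overlapped (difference 3.21 ± 0.59 (SE), adjusted p = 0.0384). *Prdm1*, which encodes the repressor BLIMP1, was at 13.1, 19.1 and 15.6 CPM in Zeb1WT and 24.3, 23 and 18.5 CPM in Zeb1ΔM under Metformin + LPS and at 34.4, 36.3 and 28.7 CPM in Zeb1WT and 9.74, 13.1 and 13.9 CPM in Zeb1ΔM in LPS (difference 1.89 ± 0.31 (SE), adjusted p = 0.0220). The serum- and glucocorticoid-induced kinase *Sgk1* was at 55, 68 and 58.1 CPM in Zeb1WT and 82.1, 74.6 and 71.2 CPM in Zeb1ΔM under Metformin + LPS and at 84.8, 135 and 96.5 CPM in Zeb1WT and 43.5, 27.6 and 48.4 CPM in Zeb1ΔM in LPS (difference 1.74 ± 0.29 (SE), adjusted p = 0.0220). Neither *Prdm1* nor *Sgk1* was called within Metformin + LPS. *Arhgap25*, a regulator of RAC, differed by 1.60 ± 0.27 (SE) (adjusted p = 0.0251), *Tcf20* by 1.99 ± 0.35 (SE) (adjusted p = 0.0286) and *Adarb1* by 1.89 ± 0.36 (SE) (adjusted p = 0.0491).

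With a difference below 0 stood *Hp*, *Clec4a1*, *Ms4a4a*, *Acp2* and *Bcl2a1a*. Haptoglobin, *Hp*, was at 2224, 1484 and 2541 CPM in Zeb1WT and 513, 697 and 848 CPM in Zeb1ΔM under Metformin + LPS and at 836, 524 and 626 CPM in Zeb1WT and 1275, 829 and 1270 CPM in Zeb1ΔM in LPS (difference -2.37 ± 0.40 (SE), adjusted p = 0.0238). The lectin receptor *Clec4a1* was at 269, 287 and 559 CPM in Zeb1WT and 126, 148 and 95.5 CPM in Zeb1ΔM under Metformin + LPS and at 70.4, 59.8 and 59.6 CPM in Zeb1WT and 82.5, 73.9 and 86.7 CPM in Zeb1ΔM in LPS (difference -1.95 ± 0.34 (SE), adjusted p = 0.0286). *Ms4a4a* was at 252, 211 and 461 CPM in Zeb1WT and 62.6, 68.7 and 76.3 CPM in Zeb1ΔM under Metformin + LPS and at 97.3, 54.5 and 55.3 CPM in Zeb1WT and 88.1, 57.6 and 57.7 CPM in Zeb1ΔM in LPS (difference -2.13 ± 0.39 (SE), adjusted p = 0.0384). In these 3 genes the Zeb1WT libraries of Metformin + LPS were the highest of the 12. The lysosomal phosphatase *Acp2* differed by -1.42 ± 0.23 (SE) (adjusted p = 0.0220) and *Bcl2a1a* by -2.00 ± 0.39 (SE) (adjusted p = 0.0491). *Hp* and *Clec4a1* belong to the monocyte and small macrophage list. Apart from *Procr* and *Crem*, each of these differences lost its call without Zeb1WT replicate 3, Zeb1ΔM replicate 1 or Zeb1ΔM replicate 2, at adjusted p up to 0.152 (*Bcl2a1a* and *Adarb1*), 0.126 (*Ms4a4a*) or 0.108 (the others). All but *Acp2* and *Clec4a1* also lost it without Zeb1WT replicate 1, and *S1pr1*, *Clec4a1* and *Bcl2a1a* without Zeb1ΔM replicate 3.

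**Figure D4:**
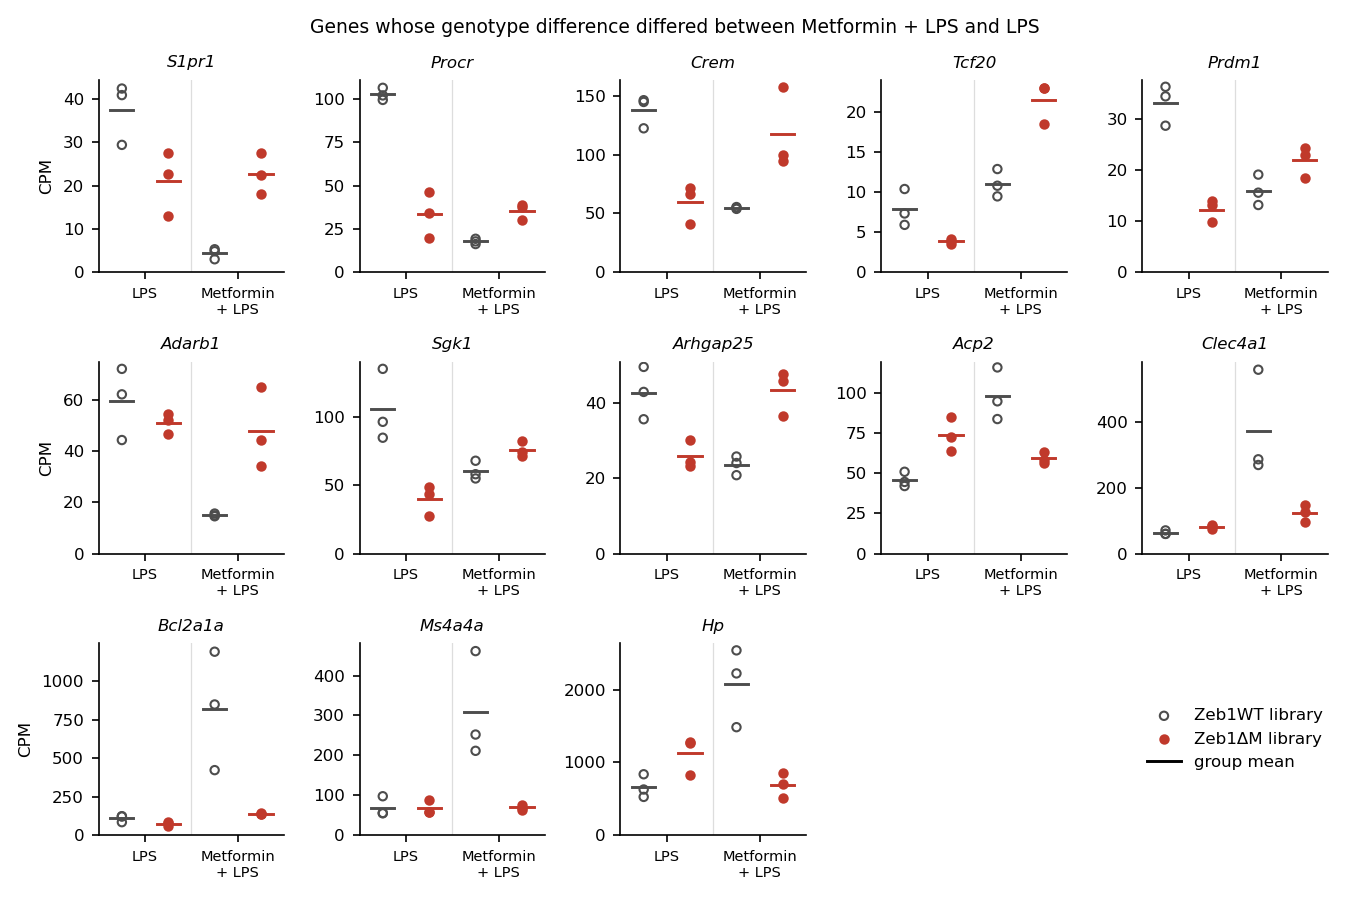
CPM in each library for the 13 named genes whose genotype difference was called as different between Metformin + LPS and LPS, with LPS on the left and Metformin + LPS on the right of each panel (linear axes from 0). Open circles are Zeb1WT, filled circles Zeb1ΔM and bars group means, and in *Procr* and *Crem* the order of the genotypes is opposite in the 2 treatments.

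Against LPS + LPS the difference of the genotype differences was called for 14 genes, 2 higher (0.0149%) and 12 lower (0.0893%), which is 0.104% of those tested. The count was 1 without Zeb1WT replicate 1, Zeb1ΔM replicate 1 or Zeb1ΔM replicate 2, 5 without Zeb1ΔM replicate 3 and 61 without Zeb1WT replicate 2. *Crem* was again among them, at 19.3, 18.6 and 19.9 CPM in Zeb1WT and 8.79, 7.83 and 6.82 CPM in Zeb1ΔM in LPS + LPS (difference 2.40 ± 0.30 (SE), adjusted p = 0.00352). *Ms4a1* was at 4.01, 5.20 and 3.32 CPM in Zeb1WT and 3.66, 5.98 and 2.56 CPM in Zeb1ΔM in LPS + LPS, with the genotypes overlapping there (difference -2.71 ± 0.47 (SE), adjusted p = 0.0340). *Ighm* had the same pattern (difference -2.45 ± 0.40 (SE), adjusted p = 0.0332), as did *Ms4a4a* (-2.13 ± 0.39 (SE), adjusted p = 0.0384). *Crem* kept this call in all 16 alternatives, whereas *Ms4a1*, *Ighm* and *Ms4a4a* lost it without Zeb1WT replicate 1, Zeb1ΔM replicate 1 or Zeb1ΔM replicate 2 (adjusted p up to 0.0922, 0.0922 and 0.123), *Ms4a1* and *Ms4a4a* also without Zeb1ΔM replicate 3, and *Ms4a4a* also without Zeb1WT replicate 3.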

How the data were processed

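Per the labels, RNA of pooled, sorted peritoneal macrophages was made into TruSeq Stranded mRNA libraries. The authors deposited a table of counts per gene for 18 libraries, as whole numbers not scaled to library size. The submitters' processing notes name STAR, RSEM and DESeq2 with GRCm38, without versions or roles, and RSEM estimates may have been rounded. Here edgeR 4.0.16 (R 4.3.3) fitted its quasi-likelihood model to all 18 libraries, with 6 group means, TMM scaling, filterByExpr and 12 residual degrees of freedom. P-values were adjusted by Benjamini-Hochberg over all genes tested, with a threshold of 0.05. CPM are TMM-scaled, and the mean log2 CPM of a gene uses a prior count of 2. Fitted folds use edgeR's default prior instead. The script was tested on simulated data for this comparison (13065 genes): 24 of 100 genes changed by a log2 fold of 1 and 79 of 100 changed by 2 were recovered, and 4 of 107 calls were false. With 3 libraries a group, differences of a log2 fold of 1 were thus missed more often than found in the simulation. It changed far fewer genes than were called in the data, so these shares need not hold there.

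The libraries were grouped by their labels, while the comparison itself, the 38 gene lists and the naming rule were chosen with earlier results of these data known. Named genes were *Zeb1*, genes in the study's text, the 15 largest rises and 15 largest falls (mean log2 CPM of at least 3, no overlap between groups, no Gm or Rik symbols), up to 6 members of each list with the smallest p, and the 10 smallest p for the difference from LPS. *Fn1*, *Hdc* and *Padi4*, and markers at 0 counts, were named after their values were seen. Alternatives were DESeq2 1.42.0, DESeq2 size factors, no filter, fewer libraries, a replicate block and a minimum fold. Total-count scaling and removal of trends with abundance or with length and GC were chosen after seeing the data.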

Additional observations from a re-analysis of the deposited data

Results flagged for a closer look

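In 13 named genes the genotype difference (Zeb1ΔM minus Zeb1WT, log2) under Metformin + LPS differed from that in LPS alone by edgeR's quasi-likelihood test of the difference itself (adjusted p from 0.00245 to 0.0491). It was greater under Metformin + LPS by 3.21 in *S1pr1*, 2.61 in *Procr*, 2.32 in *Crem*, 1.99 in *Tcf20*, 1.89 in *Prdm1*, 1.89 in *Adarb1*, 1.74 in *Sgk1* and 1.60 in *Arhgap25*. It was smaller, with differences of -2.37 in *Hp*, -2.13 in *Ms4a4a*, -2.00 in *Bcl2a1a*, -1.95 in *Clec4a1* and -1.42 in *Acp2*. Against LPS + LPS the difference was 2.40 in *Crem*, -2.71 in *Ms4a1*, -2.45 in *Ighm* and -2.13 in *Ms4a4a* (adjusted p from 0.00352 to 0.0384).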

How the results depend on the processing

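Of the 96 named genes past the threshold, 43 stayed past it under every alternative and 48 lost the call without 1 library. The 114 named genes included *Zeb1*, which lost its call without Zeb1ΔM replicate 1 and with total counts as the scaling. For the named genes other than *Zeb1*, 1510 of 1805 values under an alternative kept their direction and side of the threshold. Of the rest, 250 were no longer past it, 33 came past it and 12 changed sign. Those 12 were *Sqstm1* (0.4406), *Adgre1* (0.2704), *Alox15* (0.5787), *Cxcl1* (0.2769), *Il1a* (0.003206), *Il6* (0.21) and *Nfkb1* (0.01953) with total counts as the scaling, *Acod1* (0.00522), *Adgre1* (0.4115), *Alox15* (0.6263) and *Sqstm1* (0.1426) with the trend with abundance removed, and *Alox15* without Zeb1WT replicate 3 (0.1227, with a range from -0.1461 to 0.1227 as each library was left out). The causes were not tested, and 3 values could not be fitted.

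For genes higher (169) the count was 346 by DESeq2, 299 without a count filter, 107 with only the groups compared, 78 with a minimum log2 fold of 1 and 3274 with total-count scaling, and for genes lower (620) it was 1011 by DESeq2, 398 with only the groups compared and 324 with total-count scaling. As each library was left out, the counts ran from 38 to 234 higher and from 283 to 731 lower. Members of lists called lower, summed over lists, were 117, and 66 to 125 as each library was left out. Lists with a median below 0 were 31, and 12 with total-count scaling. *Zeb1* stood at -0.98 with total-count scaling and from -1.647 to -1.497 as each library was left out. The difference from LPS was called for 21 genes, for 300 by DESeq2, 601 without a filter, 44 with only the groups compared, 67 with 17 libraries (without Zeb1WT LPS + LPS replicate 1), 131 with total-count scaling, 36 without the trend with abundance, 34 without that with length and GC, and 3 to 70 as each library was left out. The difference from LPS + LPS was called for 14 genes, 178 by DESeq2, 428 without a filter, 1 with only the groups compared, 27 with 17 libraries and 1 to 61 as each library was left out.

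Replicate numbers are shared between the groups. The deviations of same-numbered libraries from their group means correlated at -0.0376, 0.133 and 0.0883, and those of the other pairs at -0.191 to 0.124. With 3 libraries a group these values cannot settle whether the numbers pair the samples, which were treated as unpaired. With the replicate block, 165 genes were higher, 622 lower and 5 differed from LPS + LPS.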
